A study of Drosophila melanogaster with 3 samples.

Results

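The genes described here are 10 Drosophila genes that drive or restrain entry into the cell cycle: the kinases Cdk1 and Cdk2, the cyclins CycA, CycB, CycB3, CycD and CycE, the phosphatase gene stg, the kinase inhibitor dap and the protein-destruction activator fzr. They were taken as a list by name, among 13945 protein-coding genes on 6 chromosome arms. What was measured is where the tagged protein CG11504 sat on DNA near them. A transgenic fly line stably made CG11504 with green fluorescent protein (GFP) fused to its C-terminal end. Whole embryos of both sexes, aged 0 to 18 h, were used. Their chromatin was broken by sonication (listed size range 200 to 800), and DNA bound to the tagged protein was collected with anti-GFP antibody and sequenced (ChIP-seq). There were 3 biological replicates of this single group, with no second genotype or age, and the promoter driving the transgene is not given in the sources used here. Whole embryos of this age mix dividing and non-dividing cells, so a peak cannot be assigned to either kind. No library from untagged flies was analysed here.

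Peak lists of 30000 entries exist for every replicate and for the pool of all 3. A shorter list of 10650 peaks had passed the submitters' threshold on the irreproducible discovery rate (IDR), which asks whether peak ranks repeat between replicates, and is called the IDR list here. Its peaks were the 10650 strongest of the pooled list, so an IDR rank is also a pooled rank. A place in it does not mean that the peak was found in every replicate. A peak's summit is its point of highest signal. Signal has no stated scale, so peaks are compared by their rank in a list, where rank 1 is the strongest. Sequencing depth is unknown, and the lists share a control, so they are not independent of each other. Among the IDR summits, 72.2% had a summit within 100 bp among the 10650 strongest peaks of every replicate.

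Cyclin-dependent kinases are active only when joined to a cyclin, and the cyclin decides when and on what they act. In flies, CycE with Cdk2 starts DNA replication, CycD with Cdk4 promotes growth and division, and CycA, CycB and CycB3 with Cdk1 carry cells through mitosis. The stg protein, a phosphatase of the Cdc25 family, removes the phosphates that hold Cdk1 inactive and sets the timing of the later embryonic divisions. The dap protein blocks CycE with Cdk2 when cells stop dividing, and fzr directs the anaphase-promoting complex (APC/C) to destroy the mitotic cyclins as cells leave the cycle.

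The 5 stretches of DNA printed here show what lies under the peaks of these genes. Each reaches 50 bases to either side of an IDR summit, cut back where an annotated exon begins, read from the NCBI reference genome (the assembly of dm6) on the strand of the named gene. Capitals mark matches to short words searched on both strands, and the words are spelled out where they are counted further on.
Cdk1, upstream of the start site, chr2L:10386431-10386531, minus strand: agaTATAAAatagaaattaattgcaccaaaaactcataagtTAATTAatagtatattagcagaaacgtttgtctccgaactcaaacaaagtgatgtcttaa
Cdk2, upstream of the start site, chr3R:20735492-20735592, plus strand: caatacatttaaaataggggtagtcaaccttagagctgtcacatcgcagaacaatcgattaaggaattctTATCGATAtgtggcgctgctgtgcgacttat
CycA, upstream of the start site, chr3L:11833579-11833645, minus strand: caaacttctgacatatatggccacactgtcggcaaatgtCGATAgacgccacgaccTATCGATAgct
fzr, upstream of the start site, chrX:4679919-4679987, minus strand: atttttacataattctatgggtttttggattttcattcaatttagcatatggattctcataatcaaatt
CycE, in an intron, chr2L:15747084-15747184, minus strand: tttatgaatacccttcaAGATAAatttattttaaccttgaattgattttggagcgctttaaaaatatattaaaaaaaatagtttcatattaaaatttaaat
The Cdk1, fzr and CycE stretches are rich in A and T, whereas Cdk2 and CycA carry the palindrome TATCGATA in a mixed sequence.

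Start-site peaks were present at 7 of the 10 genes. Cdk1, Cdk2, CycA, CycB, stg, dap and fzr each had an IDR summit within 500 bp of an annotated start site. CycE had a strong summit inside the gene and none within 500 bp of a start. CycB3 and CycD had no IDR summit inside them or in the 5 kb to either side. Of all protein-coding genes, 22.9% (3196) had an IDR summit within 500 bp of a start, 27.8% (3880) had one there or inside the gene and 52.6% (7340) had one there or within 5 kb. The 10 genes gave 7, 8 and 8 by these measures. In the 10650 strongest peaks of each replicate, 7, 5 and 7 of the genes had a start-site summit in replicates 1, 2 and 3. That was 63.3% ± 11.5 (SD, n = 3), beside 25%, 23.2% and 25.1% of all protein-coding genes. The genes were not the same as in the IDR list. Replicate 1 had CycE but not dap, and replicate 3 had CycE but not CycB. Replicate 2 lacked CycB and stg. Because the list was chosen with earlier results of these data known, no test was made of these counts.

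**Figure D1:**
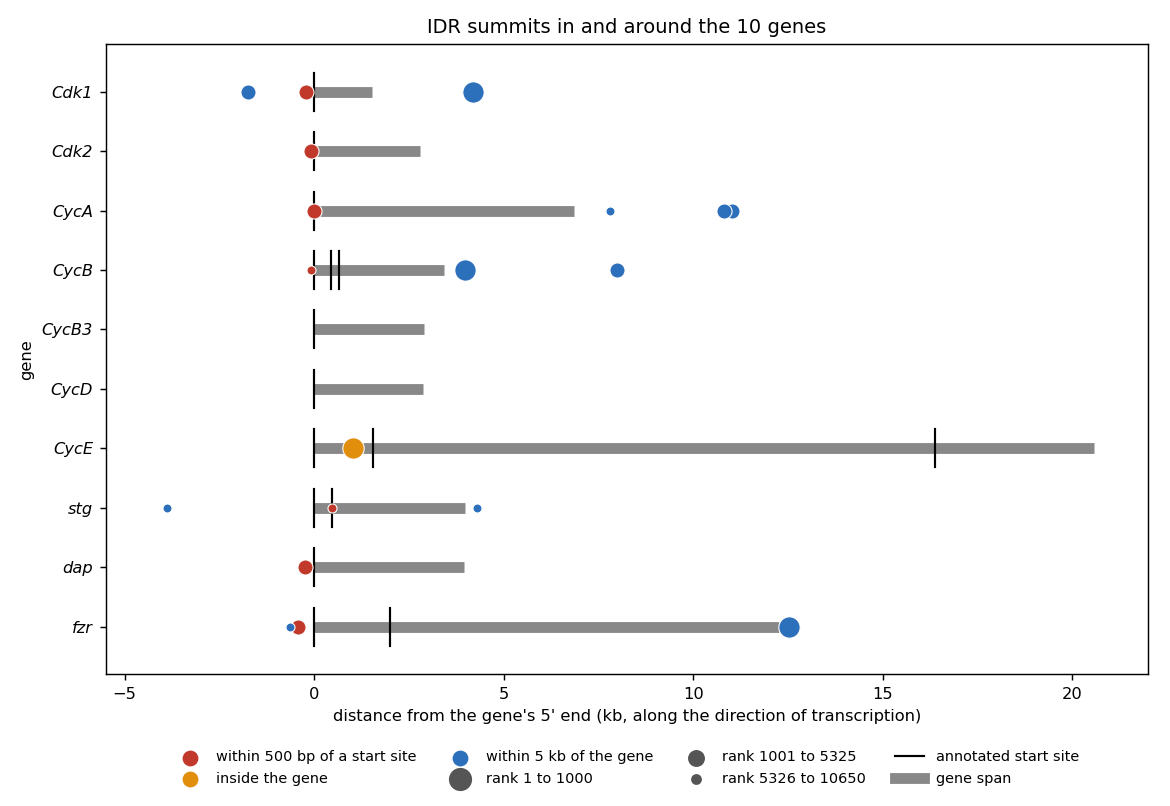
IDR summits in and around the 10 genes, drawn to scale by distance from each gene's 5' end in kb along the direction of transcription. Grey bars are gene spans, black ticks are annotated start sites, and circles are summits, coloured by where they lie and sized by rank class. Summits sit upstream of the start at 6 genes and by the inner start of stg, 3 of the 4 largest circles are outside the genes, and CycB3 and CycD have none.

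The counts rested partly on weak or unevenly repeated peaks. Leaving out replicate 3, meaning that a summit had to be matched among the strongest peaks of replicates 1 and 2, left 4 genes with a start-site summit, and the same 4 (Cdk1, Cdk2, CycA and fzr) were matched in all 3 replicates. Of all protein-coding genes, 18.6% kept a start-site summit matched in all 3. Without replicate 1 or without replicate 2 the count was 5. In each case the IDR list itself still drew on all 3 replicates, so these counts could stay or fall but not rise. The shares of all protein-coding genes were 19.4%, 19.7% and 20% without replicates 1, 2 and 3. In the 1000 strongest IDR peaks no member had a start-site summit, while 4.42% of all protein-coding genes did.

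Long genes meet peaks more often, so the counts are also set beside genes of like length. CycA, CycE and fzr were among the 3486 longest protein-coding genes (4999 bp and over), where 39.4% had a start-site summit and 55.7% had one at a start or inside the gene. Of these 3 members, 2 and 3 did. Cdk2, CycB, CycB3, CycD, stg and dap fell among the 3486 genes next in length (2167 to 4998 bp), where 23.2% had a start-site summit, and 4 of these 6 had one. Cdk1, which had one, was among the 3482 shorter genes of 1180 to 2166 bp, where the share was 18.4%.

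**Figure D2:**
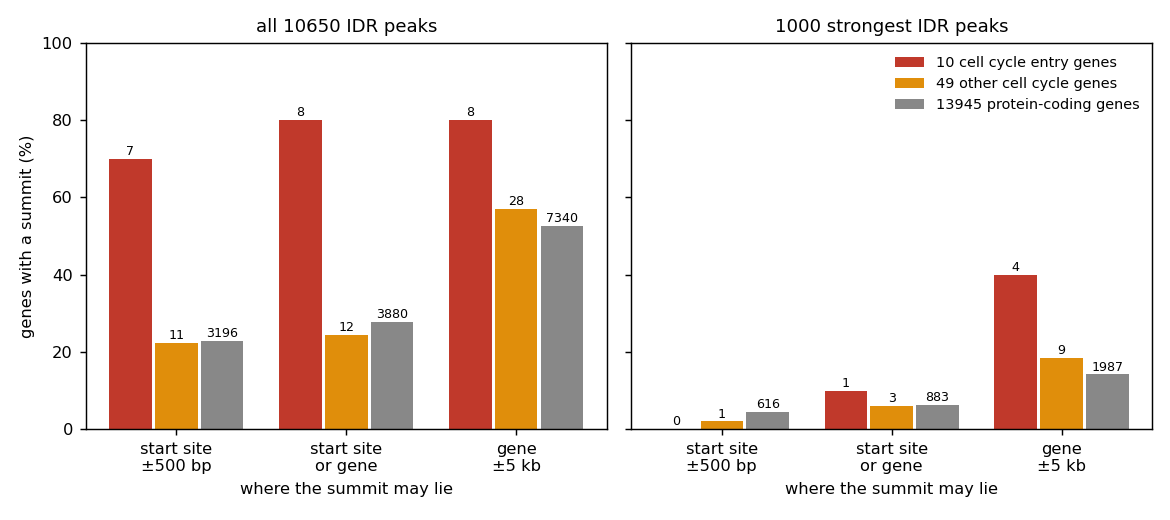
Percentage of genes with an IDR summit within 500 bp of a start site, there or inside the gene, and within 5 kb of the gene, for the 10 genes, 49 other cell cycle genes and all 13945 protein-coding genes. Numbers above the bars are counts of genes. With all 10650 IDR peaks (left) the 10 genes reach 70% at start sites and the others 22.4% and 22.9%, and with the 1000 strongest peaks (right) the first bar is at 0.

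Among the kinases, Cdk1 (2L, 10384739 to 10386262, minus strand) had the strongest start-site peak of the list. Its summit lay 219 bp upstream of the start, in the stretch between Cdk1 and mRpS7, a mitochondrial ribosomal protein gene that starts in the opposite direction. Offsets from a start site are given in bp, negative where the summit is upstream. The same summit had an offset of -181 from mRpS7 and thus was slightly nearer to that gene, whereas the summit of replicate 2, at -185 from Cdk1, was nearer to Cdk1. It ranked 1641 in the IDR list, and 1705, 1587 and 2089 in replicates 1, 2 and 3. All 3 replicates placed it in the top 6.96% of their lists, with summits 3 to 34 bp apart from the IDR summit. Next above it among start-site peaks in the IDR list was the peak shared by Nup98-96 and mbc, at rank 1640 (1481, 1666 and 2140 in the replicates), and next below was the peak of Bicra and Cul5, at rank 1644 (1666, 1479 and 2128).

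A further pair of summits lay within 5 kb of Cdk1, each at the start of another gene. The stronger, rank 899 in the IDR list, was 2660 bp beyond the 3' end of Cdk1 and at -184 from CG5096, inside a 3' UTR of gny. Its ranks were 1125, 966 and 745 in replicates 1, 2 and 3. The other, rank 3031, was 1744 bp upstream of the Cdk1 start and at -99 from da, which encodes a transcription factor of the helix-loop-helix type. It ranked 3029, 3303 and 3315. Ranks at these 3 sites kept their order in every replicate.

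Cdk2 (3R, 20735623 to 20738414, plus strand), the kinase of replication onset, had a single IDR summit, 81 bp upstream of its start. The peak was narrow, 240 bp, and ranked 4735 in the IDR list. Ranks of 4901, 5570 and 5030 in the replicates placed it in the top 16.3% to 18.6% of each list. The microRNA gene mir-995 also starts within 500 bp of this summit. It ranked below the start-site peak of Cdk1 in each replicate.

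CycA (3L, 11826719 to 11833578, minus strand), a cyclin of mitosis, had its start-site summit 17 bp upstream of its only annotated start, at IDR rank 4240. The replicates ranked it 3679, 5086 and 4653. No other gene started within 500 bp. The remaining summits within 5 kb lay beyond the 3' end, at other genes. Those of ranks 1831 and 4094 were in a single 794 bp region upstream of RpL10Ab, a ribosomal protein gene, CG11597, CG5946 and snoRNA:Psi18S-920. That of rank 7784 was at -42 from CG32095. The peak of rank 1831 had ranks of 1502, 1634 and 3355, and that of rank 7784 had ranks of 6712, 9285 and 10194. No IDR summit lay inside CycA itself.

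CycB (2R, 22803521 to 22806948, minus strand), the partner of Cdk1 in mitosis, combined the strongest peak near any of the 10 genes with a start-site peak that did not repeat. The strong summit had IDR rank 189 and lay 560 bp beyond the 3' end, between genes, with no start site within 500 bp. CycB was the gene with the nearest start, 3342 bp away. Replicates 1, 2 and 3 ranked it 203, 184 and 192, a mean of 193 ± 9.54 (SD, n = 3), within the top 0.677% of each list. The start-site summit, 86 bp upstream of the outermost start, ranked 6134 in the IDR list and 5565 in replicate 1. Replicates 2 and 3 had no summit within 100 bp of it among their 30000 peaks. A further summit, rank 2121, was at -145 from blw, an ATP synthase subunit gene, 4567 bp beyond CycB.

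CycE (2L, 15727581 to 15748150, minus strand), the cyclin that starts replication, had the strongest summit lying within any of the genes. It sat in an intron, 1016 bp downstream of the outermost start and at -524 from the next start, just outside the 500 bp window. In replicates 1 and 3 the summit was at -495 and -496 from that start and so counted as a start-site peak there. The IDR rank was 543, and the replicate ranks were 502, 464 and 801, all in the top 2.67%. This was the single IDR summit within 5 kb of CycE, a gene of 20570 bp with 3 annotated start sites.

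CycB3 and CycD, a mitotic cyclin and the partner of Cdk4, were the genes without a summit. CycB3 (3R, 24867934 to 24870816, minus strand) had its nearest IDR summit 5928 bp upstream of its start, at -90 from CG3744. That summit had IDR rank 1311 and replicate ranks of 1245, 1416 and 1340, and the longer pooled list held none nearer. Of all protein-coding genes, 44.1% were as far from an IDR summit or farther. CycD (X, 15906822 to 15909676, minus strand) was far from peaks in every list. Its nearest IDR summit was 38840 bp downstream at -163 from Gapdh2 (rank 137), and the longer pooled list held none nearer. Of all protein-coding genes, 5.12% were as far from an IDR summit or farther. Replicates 1 and 2 had the same nearest peak, and replicate 3 had a weak one 16358 bp away at rank 20463. No peak of the pooled list or of any replicate lay within 5 kb of either gene.

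**Figure D3:**
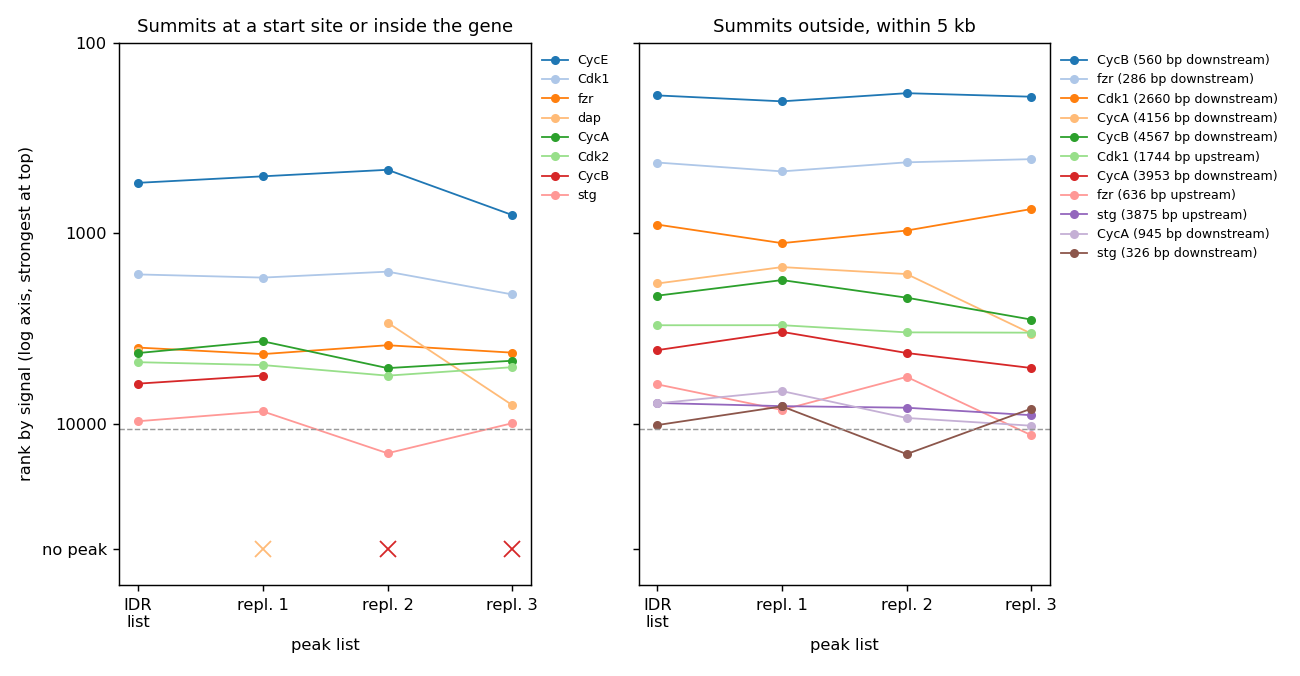
Rank by signal, on a log axis with the strongest peaks at the top, of the 19 IDR summits at or near the genes, in the IDR list and in replicates 1, 2 and 3. Lines join the ranks of 1 summit, crosses mark lists with no summit within 100 bp, and the dashed line is rank 10650. CycE (left) and the peaks downstream of CycB and fzr (right) stay near the top in every list, while dap and CycB (left) are missing from 1 and 2 replicates.

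Among the regulators, stg (3R, 29251826 to 29255800, minus strand) had 3 weak summits. The start-site summit, rank 9657, was at -10 from the inner of its 2 starts and 465 bp downstream of the outer one, within the 5' UTR of the longer transcript. Replicates 1 and 3 ranked it 8575 and 9891, and replicate 2 ranked it 14217, below its 10650 strongest peaks. A summit 3875 bp upstream of the gene was the steadiest, with IDR rank 7749 and replicate ranks of 8048, 8204 and 8980. The start nearest to it was that of CG45544, 3190 bp away. The last, 326 bp beyond the 3' end and at -1049 from SP1029, the nearest start, had IDR rank 10116. It again fell low in replicate 2 (14357, against 8074 and 8292). All 3 stood low in the IDR list, at 90.7%, 72.8% and 95.0% of its length from the top.

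The inhibitor gene dap (2R, 9712321 to 9716256, plus strand) had 1 IDR summit, 258 bp upstream of its start, at rank 4145. Its ranks were uneven. Replicate 2 ranked it 2934 and replicate 3 ranked it 7947, and replicate 1 had no peak within 5 kb of dap, its nearest being 8888 bp away. The summit of replicate 2 lay 69 bp farther from the gene than the IDR summit.

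At fzr (X, 4667290 to 4679537, minus strand) the start-site summit, 432 bp upstream of the outer start, had IDR rank 3969 and replicate ranks of 4294, 3858 and 4220. A second summit of the same region, 636 bp upstream and within a 3' UTR of Pp2C1, had rank 6189 and was less even (8430, 5655 and 11438). The strongest peak near fzr lay at its other end, 286 bp beyond the 3' end and at -304 from CG3009. It ranked 425 in the IDR list and 473, 424 and 408 in the replicates.

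The strongest peak within reach was often not at the gene itself. Of the 19 IDR summits, 7 were start-site summits of the listed genes, 1 was inside CycE and 11 lay outside within 5 kb, of which 9 were nearer to the start of another gene and 7 were within 500 bp of such a start. In 5 of the 8 genes with a summit, the strongest lay outside the gene and its start window. The same was true of 64.7% of the protein-coding genes with a summit within 5 kb, so a share of this size was the usual case. In the 1000 strongest IDR peaks 4 of the 10 genes (Cdk1, CycB, CycE and fzr) had a summit within 5 kb, beside 14.2% of protein-coding genes, and for CycE alone it was inside the gene. When each summit was given only to the gene with the nearest start, 6 genes kept a start-site summit, beside 19% of protein-coding genes, since the peak at Cdk1 then went to mRpS7. Under that assignment 7 of the 10 had a summit within 5 kb, beside 28.7%.

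**Figure D4:**
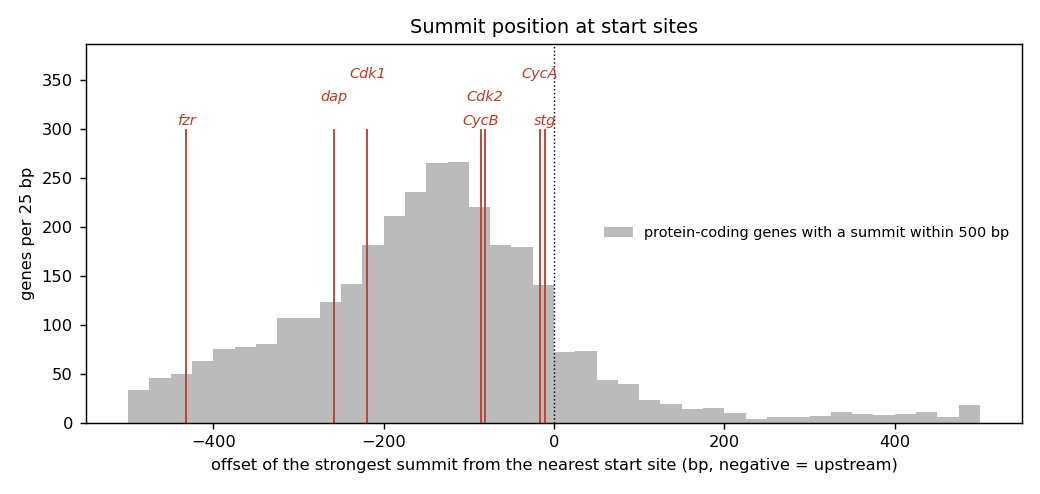
Offset in bp of the strongest IDR summit from the nearest start site, for the 3196 protein-coding genes with a summit within 500 bp (grey, genes per 25 bp), with the 7 listed genes as red lines. Negative values are upstream. All 7 lines are on the upstream side, from -432 at fzr to -10 at stg.

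All 7 start-site summits lay upstream of the nearest start of their own gene, with a median offset of -86 bp. The stg summit was inside the gene, 465 bp downstream of its outer start. In replicate 2 the stg summit lay on the other side of the inner start, 33 bp downstream. In the 3196 protein-coding genes with such a summit 87.3% lay upstream and the median was -144 bp. By strength the 7 were middling, with a median IDR rank of 4240 (1641 to 9657) beside 3409 over the 3196. A start of another protein-coding gene lay within 500 bp of the summit at 1 of the 7, Cdk1, and at 42.6% of the 3196. Summits matched among the strongest peaks of all 3 replicates made up 4 of the 7 and 80.4% of the 3196.

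Base composition divided the 7 into those close to the start and those farther off. At Cdk2, CycA, CycB and stg, with offsets of -86 to -10, the bases within 50 of the summit were 40.6%, 46.5%, 42.6% and 52.5% G or C. At Cdk1, dap and fzr, at -432 to -219, the values were 26.7%, 21.8% and 24.8%. These ranges do not overlap. The protein-coding genes as a whole showed the same order: the median was 41.6% (quartiles 33.7% and 49.5%) for 714 genes with an offset of -99 to 0 and 28.7% (23.8% and 36.6%) for 1093 genes with an offset of -500 to -200, limits set after the values were seen. The intronic CycE summit stood at 17.8%, and 2.15% of IDR summits were poorer in G and C. Over the 19 summits the mean was 32.1% ± 9.37 (SD over summits), beside 33.3% ± 10.4 over all IDR summits.

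**Figure D5:**
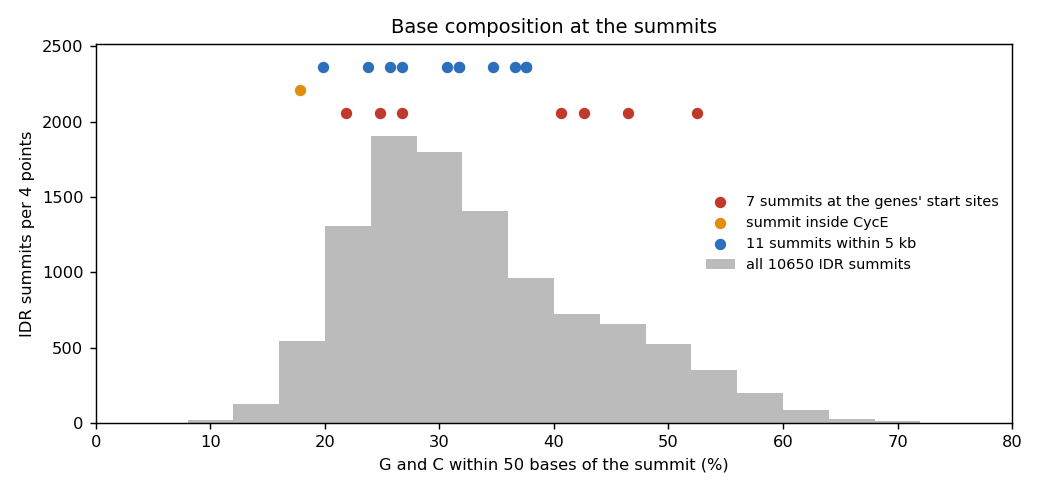
Percentage of G and C within 50 bases of the summit, for all 10650 IDR summits (grey bars, summits per 4 percentage points) and for the 19 summits at or near the genes (points, placed above the bars by where they lie). The 7 start-site points form a low group from 21.8% to 26.7% and a high group from 40.6% to 52.5%.

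Words of known promoter factors were counted in the same stretches. TATCGATA, the DNA replication-related element (DRE) read by the factor DREF at genes of proliferation, was found at the start-site summits of Cdk2 and CycA, as printed above, and at the RpL10Ab summit of rank 4094. It was present at 2 of the 7 start-site summits, at 2.30% of the 3478 IDR summits within 500 bp of any start, and at 4.48% of 19252 start sites of protein-coding genes. Its core CGATA, also the word of the insulator protein BEAF, is contained in the DRE and was counted with it, and was found at Cdk2, CycA and CycB, beside 16.7% and 23.6%. The TATA word TATAAA was at Cdk1, stg and dap (22.3% and 15.5%), GTATTT, known as Ohler 6, at dap and fzr (15.7% and 11.3%), and the homeodomain word TAATTA at Cdk1 (9.86% and 2.99%). For fzr, GTATTT lies in the part not printed.

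Within 50 bases, no start-site summit of the 7 held an E2F word (TTTCGCGC, TTTGGCGC or TTTCCCGC), which was in 1.27% of IDR summits at starts, nor GGTCACAC (M1BP, 2.30%), CAGGTAG (Zelda, 0.316%), GAGAG (9.95%), CACGTG (0.891%) or the GATA words AGATAA and TGATAA (15.7%). AGATAA was present at the CycE summit. With 100 bases to either side, GGTCACAC, GAGAG and the GATA words were each found at 1 of the 7, TAATTA at 3 and CGATA at 5, beside 4.49%, 21.9%, 26.9%, 17.3% and 30.4% of IDR summits at starts. The E2F words, CAGGTAG and CACGTG were found at none of the 7 in that wider window. A match is a description of letters and not evidence of a bound factor.

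The other genes of this pathway were counted from a list of 49. Start-site summits were present at 11 of them (22.4%), beside 22.9% of all protein-coding genes, and 28 (57.1%) had a summit within 5 kb, beside 52.6%. In the replicates the start-site share was 26.5% ± 3.53 (SD, n = 3), beside 24.5% ± 1.1 of all protein-coding genes. Of 9 further kinases, cyclins and their subunits 2 had one: Cdk4, the kinase that CycD joins (rank 4077, 73 bp downstream of a start), and CycG (rank 6853, shared with Med). Of 8 genes grouped here as regulators of these kinases, 3 had one. They were the checkpoint kinase genes grp (rank 1678) and lok (rank 3409, shared with barr), and trbl (rank 9333), whose product lowers stg protein. No start-site summit was found at twe, Wee1, Myt1, polo or Z600.

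Of 10 genes of the E2F and dREAM complexes, which switch cell cycle genes on and off, 3 had a start-site summit. The share of all protein-coding genes, 22.9%, stands beside this group and those that follow. The 3 were E2f1 (rank 3887), E2f2 (rank 8781, shared with Mpp6) and Dp, the partner of both (rank 1075, with 1032, 1103 and 1156 in the replicates). Rbf, the fly retinoblastoma protein gene, had none. Of 14 genes of the APC/C and of proteins that act with it, Cdc16 (rank 897, shared with orb) and Cdc27 (rank 5053) had one. The gene fzy, related to fzr and an activator of the APC/C in mitosis, did not. Of 5 genes of the SCF ubiquitin ligase SkpA had one (rank 7152, shared with Hmt4-20, with no match in replicate 3), and of the 3 genes of the maternal cycles (gnu, png and plu) none did.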

How the data were processed

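Per the labels, ChIP-seq was done on 3 biological replicates in 1 group. Peak lists were deposited in dm6 coordinates. Their accompanying text files name 1 shared control for the replicate and pooled lists, from which came the IDR list. The aligner and peak caller are not given here in any source used. Each list holds the authors' deposited signal value (scale not stated), a −log10 q-value (near its ceiling, not used) and a summit offset in bases, deposited with the peaks as another column.

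Start sites and gene spans came from Ensembl release 115 (BDGP6.54, dm6 coordinates), without transposable elements, on 6 arms. A summit counted for every gene whose start lay within 500 bp, or whose span or the 5 kb beside it held the summit. Replicate peaks were matched within 100 bp, taking the strongest. Of the 49 further genes, 1 (lmg, now lmgA) was matched by an older symbol. Assignment and word search were tested on simulated data. Python 3.11.15, numpy 2.4.6, pandas 2.3.3 and matplotlib 3.10.9 were used.

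The rule for named genes took the 10 members, genes starting within 500 bp of their summits or else with the nearest start, list genes with start-site summits and the neighbours of Cdk1 in rank. The list genes named as having no start-site summit, and gny and Pp2C1, whose exons hold a summit, fall outside that rule and were chosen after their values were seen. The members and lists were chosen with earlier results of these data known, so counts stand beside the share of all protein-coding genes and no test was made. Alternatives changed the peaks used, windows, matching and replicates.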

Additional observations from a re-analysis of the deposited data

How the results depend on the processing

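A count of genes or words was taken as moved beyond 1.5 times the main count, and a share or rank beyond the SD between replicates. By these limits 21 values moved and 34 did not, the latter including 9 words found at any member summit with 100 bases to either side, against 6 with 50. The count of members with a start-site summit (7) was 0 in the 1000 strongest IDR peaks and 4 with matches in all 3 replicates. The count was 4 to 5 with each replicate left out of the matching. With summits inside the gene added (8), it was 1, 5, and 5 to 6 in the same settings. There the shares of all protein-coding genes were 6.33%, 23.9%, and 24.8% to 25.2%. Within 5 kb (8) the count of members was 4 in the 1000 strongest, beside 14.2% of all protein-coding genes. The 49 further genes (11) gave 7 above the median signal and 1 in the 1000 strongest. The share of protein-coding genes with a start-site summit (22.9%) was 15.8% above the median signal and 4.42% in the 1000 strongest. It was 30.4% in the whole pooled list, 18.6% with matches in all 3 replicates and 19.4% to 20.0% with a replicate left out of the matching. Windows of 250 and 1000 bp gave 18.1% and 26.7%, and the gene's 5' end gave 20.7%. Assignment by nearest start, an alternative added after the data were seen, gave 19%. The window of 1000 bp brought CycE in (8 genes), and that of 250 bp lost dap and fzr (5 genes). The median rank of the strongest summit of each gene (1365) was 2078 in replicate 3. The causes were not tested. No paired analysis was possible because there is 1 group.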

Other observations

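The whole pooled list, IDR summits included, placed 11 summits in or within 5 kb of fzr, of which 3 were IDR summits. CycA had 9, with 4 of them in the IDR list, and stg had 7, with 3 in it. Cdk1 and CycB had 4 each, with 3 in it, and Cdk2, CycE and dap had 1 each, an IDR summit. Within fzr, where the IDR list had no summit, the strongest pooled summit had rank 12897, and the strongest in replicates 1, 2 and 3 had ranks 18103, 14033 and 13472.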
